A study of Mus musculus with 4 samples.

Results

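Krüppel-like factors were described here through 10 Klf genes, namely Klf2, Klf3, Klf4, Klf5, Klf6, Klf9, Klf10, Klf11, Klf13 and Klf16, among the 55267 gene entries of the study. The genes were chosen by name, with earlier results of the BMP6 against control comparison in view, so their differences between these groups are a description. They were read out of a fit over all entries, and how many passed its thresholds is counted, but these counts are no independent evidence. Each of the 10 names had an entry. The annotation held 17 Klf entries in all, and the others serve as a comparison.

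KLF proteins are transcription factors whose C-terminal zinc fingers bind GC boxes and CACCC boxes, the same sites that the related SP proteins use. They differ in their N-terminal parts. KLF2, KLF4, KLF5, KLF6 and KLF7 recruit mainly acetyltransferases, KLF3, KLF8 and KLF12 bind the corepressor CtBP, and KLF9, KLF10, KLF11, KLF13, KLF14 and KLF16 bind the corepressor Sin3A. KLF10 and KLF11 were first described as TGF-beta-inducible early genes, TIEG1 and TIEG2. BMPs, to which BMP6 belongs, are ligands of the TGF-beta superfamily that signal through SMAD1, SMAD5 and SMAD9.

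Muscle stem cells (MuSCs), the Pax7-expressing stem cells of skeletal muscle, came from 9-week-old female C57BL/6N(Tg(Pax7-EGFP)Tajb) mice, in which Pax7 regulatory sequence drives EGFP. Cells of all groups were sorted for EGFP after a day in culture, grown further at 3% O2, and kept without serum for 6 h with 200 ng/mL of the soluble receptor BMPR-1A-Fc, which captures BMPs. BMP6-treated cells then received 100 ng/mL BMP6 for 1 h (n = 2 libraries), and controls received the vehicle, 4 mM HCl with 0.1% BSA, for 1 h (n = 2 libraries). The replicate number is a batch in the labels that a BMP6 and a control library share. In units of 1000000, each library held between 108.1 and 112 reads as rebuilt from coverage. It held between 13002 and 13203 entries at 1 TPM (a level per transcript length, scaled so that each library sums to 1000000) or more.

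The cells expressed markers of the myogenic lineage, with Myog the highest of those listed. The list of 6 muscle stem cell and myoblast markers summed to 6442 to 6772 TPM after BMP6 and 6595 to 7424 TPM in controls, with Pax7 between 8.29 and 11.7 TPM and Myog, the factor of early differentiation, between 4400 and 5472 TPM. Markers of the labelled cell type were thus detected, with Pax7 low against Myog. Summed endothelial markers lay at 1.72 to 2.02 TPM after BMP6 and 1.25 to 2.16 TPM in controls, and immune markers at 1.19 to 1.89 and 1.35 to 2.21 TPM. Fibro-adipogenic markers summed to 54.1 to 82.3 and 68 to 88.8 TPM, mostly from Col1a1, and pericyte and smooth muscle markers to 8.61 to 9.44 and 7.04 to 8.27 TPM. Epithelial markers summed to 0.0795 to 0.245 TPM after BMP6 and to at most 0.078 TPM in controls. The pericyte and epithelial sums were thus higher in both BMP6 libraries than in both controls, and their part in the results was not tested. Kdr (endothelial) and Krt5 (epithelial) were listed at 0 in all libraries. Only markers with a mean of at least 1 TPM were tested. These were all 6 muscle markers, 3 of 5 fibro-adipogenic, 2 of 4 pericyte and smooth muscle, 1 of 5 endothelial and 1 of 5 immune markers. The 3 epithelial markers were not tested. None of the tested markers passed the adjusted p of 0.1 (limma, Benjamini-Hochberg).

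Promoter sequences were available for 7 of the 10 genes, all except Klf5, Klf10 and Klf16. The sequences came from RefSeq (GRCm38.p6) and were placed on GRCm39 by exact match. Those of Klf4 and Klf9, which had the highest log2(TPM + 1) differences after Klf10 (an order that changes with the pseudocount), and of Klf11, the closest relative of Klf10, are shown 5′ to 3′ ending before both the RefSeq and the deposited transcript start. Capitals mark GC boxes (GGGCGG or CCGCCC) and the GC-rich motif GGCGCC that SMAD1 and SMAD5 are known to bind.
Klf4, chr4:55532476-55532725, minus strand: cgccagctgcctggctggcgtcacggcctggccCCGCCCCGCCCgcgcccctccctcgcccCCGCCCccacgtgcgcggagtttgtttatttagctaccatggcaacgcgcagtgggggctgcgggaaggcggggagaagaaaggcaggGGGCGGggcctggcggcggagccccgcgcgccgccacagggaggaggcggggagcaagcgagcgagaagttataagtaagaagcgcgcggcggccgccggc
Klf9, chr19:23118340-23118589, plus strand: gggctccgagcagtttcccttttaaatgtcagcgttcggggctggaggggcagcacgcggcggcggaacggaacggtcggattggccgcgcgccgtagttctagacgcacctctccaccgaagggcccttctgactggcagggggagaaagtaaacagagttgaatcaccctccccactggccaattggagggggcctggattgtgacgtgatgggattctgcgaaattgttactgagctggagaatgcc
Klf11, chr12:24701120-24701272, plus strand: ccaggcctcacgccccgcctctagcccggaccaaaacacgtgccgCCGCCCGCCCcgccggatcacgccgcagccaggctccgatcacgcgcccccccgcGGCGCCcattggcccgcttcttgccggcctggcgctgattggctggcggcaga
Within 250 bases before the RefSeq start, GC boxes were found on either strand in 6 of the 7 promoters, against 32.7% of 32851 promoters of that length. Klf3 had 6 of them, Klf4 and Klf11 had 4 each, of which 2 of Klf11 lie in the stretch shown, and Klf9 had none. GGCGCC was found in Klf11 alone among the 7, with 2 copies, of which 1 lies in the stretch shown, and in 9.59% of all promoters. The CAGA box (CAGACA or TGTCTG) was found in Klf3 alone, against 17.1%, and the E-box CACGTG in Klf4, Klf6 and Klf11, against 6.02%. The CACCC box (CACCC or GGGTG) was in 4 of the 7, against 52%. The SMAD palindrome GTCTAGAC and the element TGACGTCA were in none of the 7 and in 0.167% and 1.55% of all promoters. The letters of overlapping GC boxes were counted in each hit. A match is a description of these letters only.

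Klf10 had the largest difference of the Klf genes. Its level was 165 and 193 TPM in the BMP6 libraries and 46.4 and 54.9 TPM in the controls. Every BMP6 library thus lay above every control, and the groups were far apart compared with the spread within them. The mean ± SD of n = 2 libraries was 179 ± 19.7 TPM with BMP6 against 50.6 ± 6.05 TPM with vehicle, a ratio of 3.54. In such bulk samples, more cells that express a gene and more RNA per cell cannot be told apart. On the log2(TPM + 1) scale the difference was 1.80 with a standard error of 0.13, and within the pairs that shared a replicate number it was 1.81 and 1.80. Between 8998 and 35236 rebuilt reads per library lay behind these levels, which count read ends after amplification and not molecules. Klf10 lies on chr15:38291707-38300950 (GRCm39, minus strand).

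**Figure D1:**
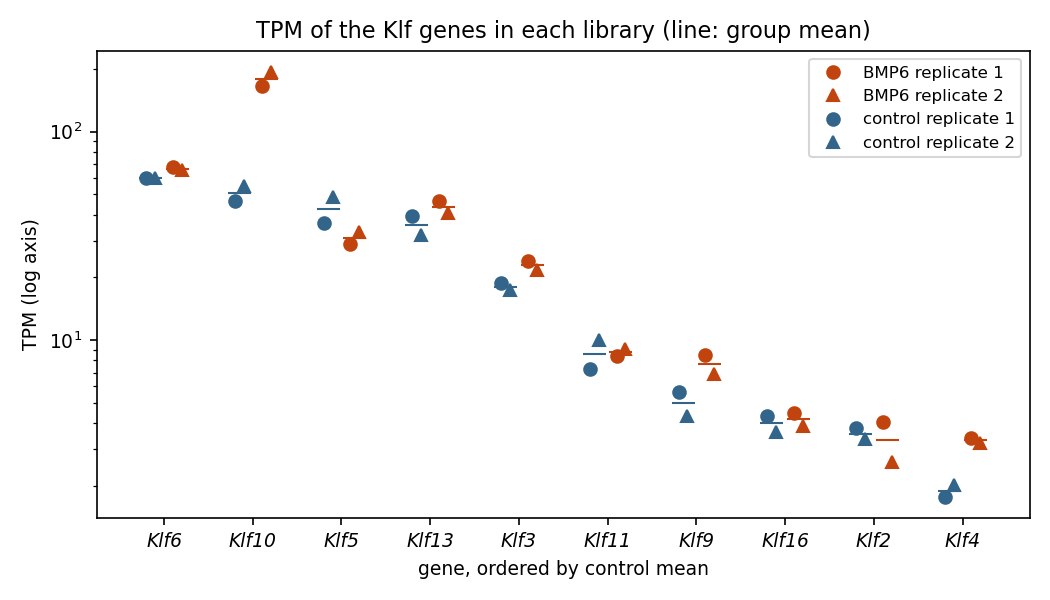
TPM on a log axis for the 10 Klf genes, ordered by their control mean, with 1 point for each library (blue, control; orange, BMP6; circles, replicate 1; triangles, replicate 2) and a line at each group mean. Klf10 moves from 46.4 and 54.9 TPM in controls to 165 and 193 TPM after BMP6, while each of the other genes stays within a ratio of 1.74 of its control mean.

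The Klf10 reads were assigned almost wholly to a single transcript, ENSMUST00000074043.7, which has 3044 bases in 4 exons. Its share of the Klf10 level was 99.6% and 99.2% after BMP6 and 99.7% and 99.8% in controls. The remainder came mainly from ENSMUST00000227920.2, which shares the first exons and ends in a last exon of its own, chr15:38291707-38292468. This transcript stood at 0.613 and 1.4 TPM after BMP6 and at 0.131 and 0.123 TPM in controls. The mean depth over its own last exon was 7.2 and 9.11 reads after BMP6 and 1.34 and 1.48 reads in controls, not scaled to library size. The 3′ alternative was therefore also higher in both BMP6 libraries, at a level far under that of the main transcript. The last of the Klf10 transcripts, ENSMUST00000226363.2, was at 0 in replicate 1 of both groups and reached at most 0.0744 TPM.

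All exons of the main transcript were higher after BMP6. Scaled to library size, the exon depth was higher 3.44-fold in the pair of replicates 1 and 2.98-fold in the pair of replicates 2 for the first exon, and 3.88-fold and 3.46-fold for exon 2. For exon 3 the ratios were 3.47 and 3.56, and for exon 4 they were 3.59 and 3.49. The difference thus ran along the whole transcript. Depth over the first exon was 32.4% and 39.5% of that over the last exon after BMP6 and 33.8% and 46.4% in controls, so all 4 libraries were less deep at the 5′ end.

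**Figure D2:**
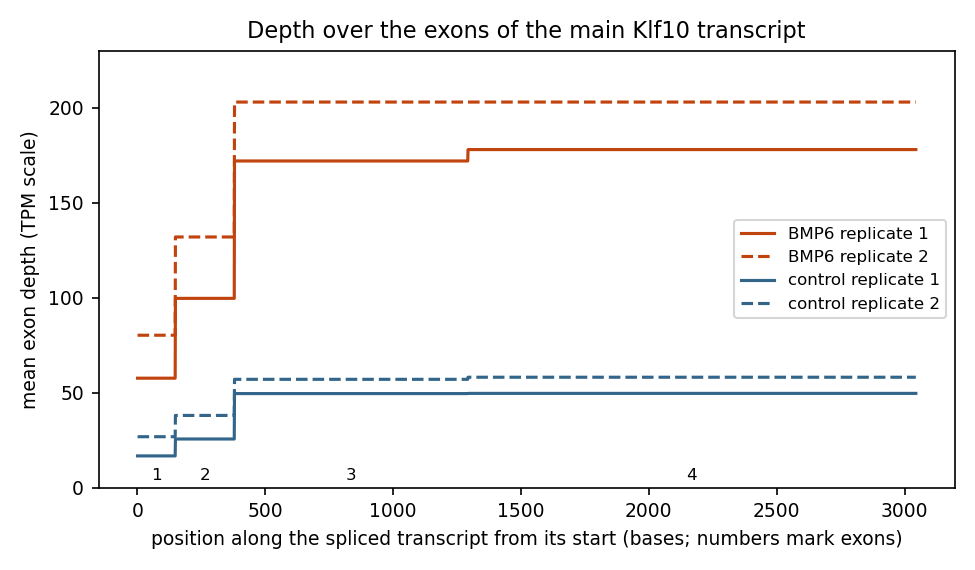
Mean depth on the TPM scale (y axis) over the 4 exons of the main Klf10 transcript, placed along the spliced transcript in bases from its start (x axis), with 1 line for each library (orange, BMP6; blue, control; solid, replicate 1; dashed, replicate 2). Both BMP6 lines lie above both control lines over every exon, and depth is lowest over exon 1 in all libraries.

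For the other TGF-beta-inducible early gene, the groups overlapped. Klf11 (chr12:24701273-24712788, plus strand) had 8.4 and 9.08 TPM after BMP6 and 7.25 and 9.99 TPM in controls. The BMP6 libraries lay between the controls, and the log2 difference was 0.03 with a standard error of 0.17, or 0.19 and -0.12 within the pairs. Without control replicate 1 it was -0.17, and without BMP6 replicate 2 it was -0.02. Klf11 was thus at a lower level than Klf10 in every library, and the sign of its difference rested on single libraries. Another entry on the same strand, Grhl1, which encodes a grainyhead transcription factor, lies 33883 bases from Klf11 and was at 4.68 and 6.67 TPM after BMP6 and 0.223 and 0.805 TPM in controls. Grhl1 was picked from several entries within 100 kb after its values were seen, and the closest of them lies 3044 bases from Klf11.

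Of the remaining Sin3A-binding members, Klf9 and Klf13 were higher in both BMP6 libraries than in both controls. Klf9 (chr19:23118590-23145498, plus strand) encodes a factor known as a target of thyroid hormone and glucocorticoid receptors. Its level was 8.49 and 6.88 TPM after BMP6 and 5.67 and 4.32 TPM in controls, with means of 7.69 ± 1.14 and 4.99 ± 0.949 TPM. The log2 difference was 0.54 with a standard error of 0.18, and 0.51 and 0.57 within the pairs. Replicate 1 was the higher library in both groups, so the difference was steadier within pairs than the group SDs show. Of the 7839 stretches of 50 bases in its GENCODE M39 transcript, ENSMUST00000036884.4, 3.74% also occurred in other genes. The deposited version, ENSMUST00000036884.3, has only 4486 bases, so this share does not describe the deposited model.

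Klf13 (chr7:63536099-63588663, minus strand) stood at 46.5 and 40.9 TPM after BMP6 and at 39.3 and 32 TPM in controls. The lower BMP6 library was only just above the higher control, and replicate 1 was again the higher of each group. The log2 difference was 0.29 with a standard error of 0.14, and 0.24 and 0.34 within the pairs. It was 0.43 without control replicate 1 and 0.15 without control replicate 2. An entry on the opposite strand, Gm27252, overlaps Klf13 and was at 3.86 to 5.38 TPM, and since the libraries were unstranded, reads of the overlap cannot be told apart. Klf16 (chr10:80402958-80413155, minus strand) had 4.48 and 3.87 TPM after BMP6 and 4.35 and 3.65 TPM in controls. These groups overlapped, with a log2 difference of 0.05 (standard error 0.16), which was -0.04 without BMP6 replicate 1 and -0.05 without control replicate 2.

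Among the members that recruit acetyltransferases, Klf4 was higher after BMP6 and Klf5 lower. Klf4 (chr4:55527143-55532466, minus strand), best known as a factor of pluripotent cells and epithelia, was the member with the lowest control level. It had 3.41 and 3.21 TPM after BMP6 and 1.78 and 2.03 TPM in controls, so the groups did not overlap. The means were 3.31 ± 0.141 and 1.9 ± 0.174 TPM, a ratio of 1.74, and the log2(TPM + 1) difference was 0.57 with a standard error of 0.15. Within the pairs it was 0.67 and 0.48. At this low level the value depended on the scale, with 0.27 at a pseudocount of 5, below the 0.34 of Klf9, and 0.79 by voom. Only 344 to 648 rebuilt reads per library lay behind it.

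Klf5 (chr14:99536127-99552472, plus strand) encodes a factor that takes part in myogenic differentiation. It had 28.9 and 33 TPM after BMP6 and 36.5 and 48.5 TPM in controls. It was the only one of the 10 genes with both BMP6 libraries below both controls. The means were 31 ± 2.87 and 42.5 ± 8.52 TPM, a ratio of 0.729, and the log2 difference was -0.43 with a standard error of 0.16, or -0.32 and -0.54 within the pairs. It was -0.63 without control replicate 1 and -0.23 without control replicate 2. Replicate 2 was the higher library in both groups. The main transcript, ENSMUST00000005279.8, made up between 97.4% and 98.7% of the level in all libraries.

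Klf6 (chr13:5911481-5920393, plus strand), an early-response gene in many cell types, had the highest control level of the family. It was at 67.4 and 65.5 TPM after BMP6 and at 59.8 and 60.2 TPM in controls. Replicates lay close together and the groups did not overlap, although the ratio was only 1.11, and the log2 difference was 0.14 with a standard error of 0.09. Klf2 (chr8:73072877-73075500, plus strand), a flow-responsive gene of endothelial cells, was at 4.05 and 2.6 TPM after BMP6 and at 3.79 and 3.35 TPM in controls. The BMP6 libraries lay on either side of the controls, with a log2 difference of -0.10 (standard error 0.20) that was 0.15 without BMP6 replicate 2. The endothelial markers given above summed to at most 2.16 TPM in any library, and which cells the Klf2 RNA came from was not tested.

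Klf3 (chr5:64960731-64990244, plus strand), the CtBP-binding member, is known to be expressed in muscle. It had 24.1 and 21.6 TPM after BMP6 and 18.7 and 17.4 TPM in controls, with a log2 difference of 0.32 (standard error 0.12) and 0.35 and 0.30 within the pairs. Every BMP6 library lay above every control. The transcript ENSMUST00000165536.8 carried 76.8% and 79% of the level after BMP6 and 82.3% and 75% in controls, so the transcript shares overlapped between the groups. Of the 50-base stretches in its GENCODE M39 version, ENSMUST00000165536.9, 7.37% also occurred in other genes. Among them was the opposite-strand entry Gm20033, which overlaps Klf3 and was at 2.71 to 3.27 TPM. In these unstranded libraries, reads of that overlap cannot be told apart.

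Across the 10 genes, all of which had a mean of at least 1 TPM, both BMP6 libraries were above both controls for 6 genes (Klf3, Klf4, Klf6, Klf9, Klf10 and Klf13), below them for Klf5 alone, and overlapped for Klf2, Klf11 and Klf16. Of the 10645 tested entries open to calling, 17.4% lay above and 10.8% below in the same way. Calling asked for a 2-fold difference in either direction on the log2(TPM + 1) scale together with an adjusted p under 0.1. Klf10 was the 1 member called higher, against 0.225% of the entries (24), a call that was lost when entries of any low level were tested as well. No member was called lower, against 0% (0 entries by limma, with 1 lower at that fold and an unadjusted p under 0.05). Whatever the fold, 1 member passed higher and 0 lower, against 0.263% and 0.00939% of entries. The median log2 difference was 0.22 over the members and 0.02 over all tested entries. As these genes were proposed with this comparison in view, the counts describe them and nothing is read from them.

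With the replicate number as a block in the same fit, 3 members passed the adjusted p higher (Klf4, Klf9 and Klf10) and 1 lower (Klf5), against 1.32% and 0.319% of entries. Pairing thus moved the number of members past the threshold from 1 to 3 in the higher direction. Klf10 remained the 1 member called with the fold threshold.

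**Figure D3:**
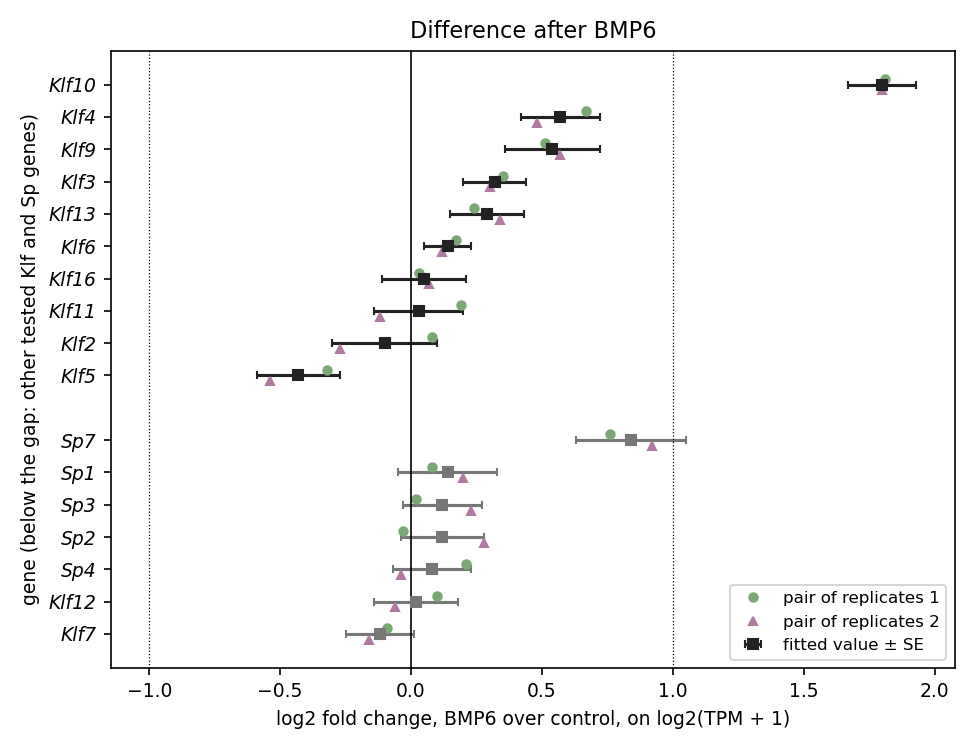
Log2 fold change of BMP6 over control on log2(TPM + 1) for the 10 Klf genes (above the gap) and 7 other tested Klf and Sp genes (below it). Squares and bars give the fitted value and its standard error, circles and triangles the differences within the replicate pairs, and dotted lines the fold threshold; Klf10 alone lies beyond it, at 1.80, and Klf5 is the lowest at -0.43.

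**Figure D4:**
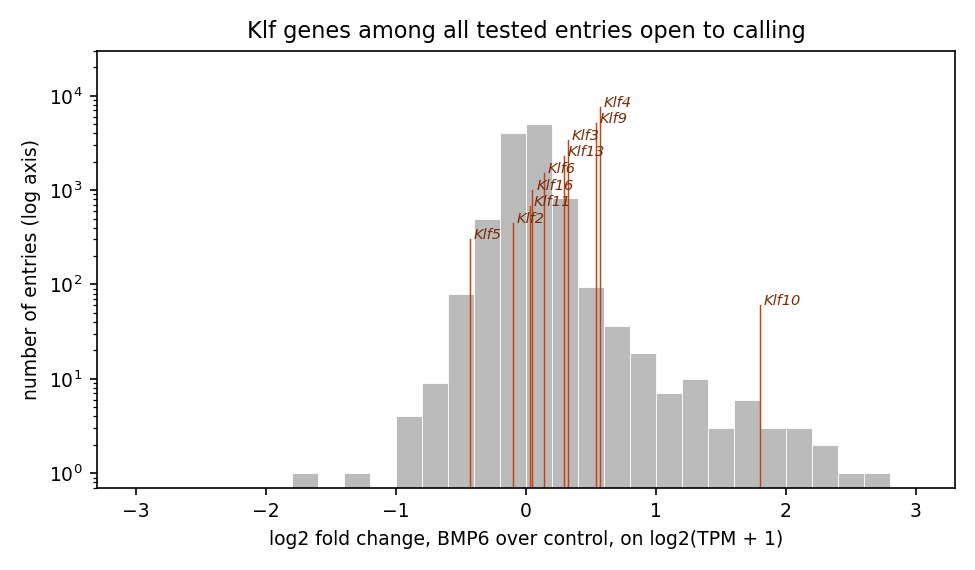
Number of tested entries open to calling (log axis) by log2 fold change of BMP6 over control, in bins of 0.2, with orange lines at the values of the 10 Klf genes; line heights only separate the names. Klf10 lies at 1.80 in the thin upper tail and the other 9 genes lie between -0.43 and 0.57.

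The order of the family changed at its top. TPM is scaled to the length of the deposited transcript models, so levels of different genes were compared on it. Uneven depth along a transcript, as given above for Klf10, is not corrected by this scaling. In controls Klf6 came first with 60 TPM, followed by Klf10 (50.6), Klf5 (42.5) and Klf13 (35.7), of which neighbours overlapped in range, and then by Klf3 (18). Klf11 (8.62) overlapped with the non-member Klf7 (7.17), and Klf9 (4.99) with Klf16 (4), and Klf16 with Klf2 (3.57). Klf4 (1.9) came last among the members. After BMP6 Klf10 came first with 179 TPM, ahead of Klf6 (66.4), Klf13 (43.7), Klf5 (31) and Klf3 (22.9), none of which overlapped with the next. Klf11 (8.74) and Klf9 (7.69) overlapped there, as did Klf16 (4.17) with Klf2 (3.32), and Klf2 with Klf4 (3.31). Klf5 was below Klf13 after BMP6, whereas their ranges overlapped in controls.

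The 17 Klf entries together summed to 372 and 389 TPM after BMP6 and to 234 and 247 TPM in controls. Klf10 made up 44.5% and 49.7% of that sum after BMP6, compared with 19.8% and 22.3% in controls. Without Klf10 the sums were 206 and 196 TPM and 188 and 192 TPM, a far smaller gap. The 10 genes held between 95.3% and 97.6% of the family sum in every library.

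**Figure D5:**
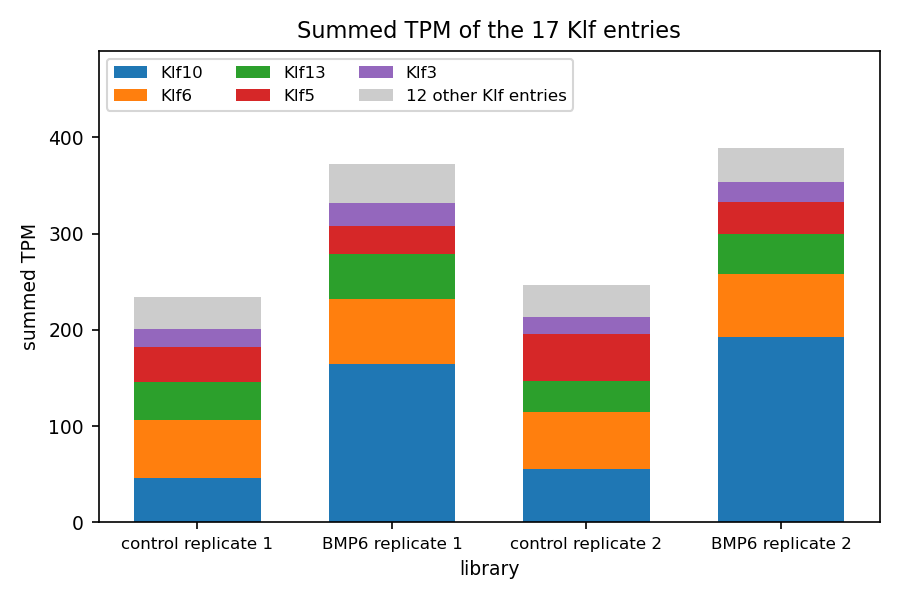
Summed TPM of the 17 Klf entries in each library, split into Klf10, Klf6, Klf13, Klf5, Klf3 and 12 other entries (stacked bars from 0). The sum is 234 and 247 TPM in controls and 372 and 389 TPM after BMP6, and the Klf10 part accounts for 44.5% and 49.7% of the BMP6 bars.

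Of the 17 other Klf and Sp genes listed, 16 had an entry and 7 had a mean of at least 1 TPM. None of the 7 passed the adjusted p in either direction (limma, Benjamini-Hochberg). At an unadjusted p under 0.05 there was 1, against 3.12% of all entries open to calling. The median log2 difference of the 7 was 0.12. Sp7, which encodes the osteoblast factor osterix, had 1.41 and 2.25 TPM after BMP6 and 0.42 and 0.717 TPM in controls. Its groups did not overlap, but the log2 difference of 0.84 (standard error 0.21) had an adjusted p of 0.878 (limma, Benjamini-Hochberg), which ranged from 0.00359 to 1 over the alternatives. With the block, Sp7 was past the adjusted p, below the fold threshold on the log2(TPM + 1) scale. At this low level the value depended on the scale. The ratio of its mean TPM was 3.22, and its log2 difference ranged from 0.29 to 1.65 over the alternatives. Klf7 was at 6.84 and 6.17 TPM after BMP6 and 7.32 and 7.02 TPM in controls (log2 difference -0.12, standard error 0.13), and Klf12 differed by 0.02 (standard error 0.16). Sp1, Sp2, Sp3 and Sp4, the widely expressed SP factors, differed by 0.14, 0.12, 0.12 and 0.08. Klf1, Klf8, Klf14 and Klf15 had means under 1 TPM, and Klf17 was listed at 0 in all libraries.

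The 15 tested cofactors and ubiquitin ligases of KLF proteins had a median log2 difference of 0.02, and none passed the adjusted p (limma, Benjamini-Hochberg; 0 at an unadjusted p under 0.05 with or without the block). The most abundant were Ctbp1, the partner of KLF3, with means of 274 and 279 TPM (log2 difference -0.02), and Hdac2, a deacetylase of Sin3 complexes, with 212 and 207 TPM (0.04). Of the 19 tested regulators upstream of Klf genes, among them the MEF2, ERK5 and SMAD factors, none passed either (0 at an unadjusted p under 0.05, against 3.12% of all entries open to calling, and 6 with the block, against 12.7%), and the median was 0.10. Mef2a had means of 99.3 and 86.2 TPM (log2 difference 0.19) and Mef2c 70.1 and 72.9 TPM (-0.06).

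Of the 18 tested genes reported elsewhere as KLF targets, 2 had an unadjusted p under 0.05, against 3.12% of all entries open to calling. With the block there were 5, against 12.7%. The median log2 difference of the list was -0.01. Only 1 of its genes passed the adjusted p, in the higher direction, against 0.263% of entries. This was Smad7, the inhibitory SMAD, which BMP signalling itself is also known to induce. Smad7 had 5.12 and 7.36 TPM after BMP6 and 0.633 and 0.926 TPM in controls, a log2 difference of 2.01 with a standard error of 0.20 and an adjusted p of 0.0511 (limma, Benjamini-Hochberg; 1.37e-05 to 0.663 over the alternatives). The most abundant of this list, Acta2 and Cdkn1a, had means of 2927 and 3175 TPM (log2 difference -0.12) and of 1605 and 1472 TPM (0.12). In the list, 4 genes were above and 4 below in both BMP6 libraries, against 17.4% and 10.8% of all entries open to calling, and 10 overlapped.

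The entries with a pattern closest to Klf10 over the 4 libraries were found as those with the smallest root mean square difference from Klf10 in log2(TPM + 1) centred on its mean. These were Pwwp2b (0.0422), Skil (0.0473), Hbegf (0.0841), Cldn9 (0.0993) and Ccn2 (0.13). As they were selected on this comparison, their values are given without a test. Skil, which encodes the SMAD corepressor SnoN, had 36.2 and 44.5 TPM after BMP6 and 10 and 12.7 TPM in controls, and as with Klf10 replicate 2 was the higher library of each group. Hbegf, an EGF receptor ligand, had 44.5 and 49.2 TPM and 12.8 and 15.8 TPM. Ccn2, a matricellular protein gene, had 31.9 and 32.5 TPM and 9.48 and 9.56 TPM. Pwwp2b and Cldn9 were less abundant, at up to 7.03 and 4.28 TPM after BMP6 and up to 1.47 and 0.716 TPM in controls. The log2 differences of the 5 entries lay between 1.65 and 1.77. For Pwwp2b and Cldn9 this likeness depended on the pseudocount, since their TPM ratios were 5.36 and 7.53 against 3.54 for Klf10, and their log2 differences ranged from 0.89 to 2.42 and from 0.67 to 3.02 over the alternatives.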

How the data were processed

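RNA-seq libraries of BMP6- and vehicle-treated MuSCs (2 each) were grouped by their labels. PolyA RNA was amplified as full-length cDNA without molecular identifiers (Smart-seq 2) and made into unstranded libraries. According to the labels and methods, the authors aligned reads with STAR 2.7.11a to GRCm39, used SAMtools 1.17, and quantified merged assemblies with StringTie 2.2.1, with its correction for reads that align to several places switched off. The authors deposited TPM per entry, FPKM per entry and, in files per library, coverage, a signal of mean depth that is not scaled to library size. Rebuilt reads are coverage times length over a read length of 100 bases. They count both read ends, not molecules.

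Limma 3.58.1 (R 4.3.3, trend, two-sided) was fitted without a block to log2(TPM + 1) of the 13128 entries whose TPM averaged 1 or more, and p-values were adjusted over all of these by Benjamini-Hochberg. This scale understates changes of low genes. Unnamed entries and names such as Gm or Rik (2483) stayed in the fit but were not called. The fit was tested on simulated data drawn without a replicate effect, so that test does not cover the pairing. No permutation of 2 against 2 libraries can give a p under 0.333. The replicate number is a batch in the labels, so same-numbered libraries are paired. Across genes, which are not independent replicates, their deviations correlated at 0.563. The first principal component of the libraries held 54.3% of the variance. Fitted alternatives were the block, other pseudocounts, filters, normalizations, FPKM, voom on rebuilt reads, no trend, and each library left out. The libraries are separate biological replicates in the labels. The report names the 10 Klf genes, Klf and Sp genes with a mean of at least 1 TPM, the genes past the adjusted p and the 2 most abundant of each further list, and the 5 entries closest to Klf10, and further genes were added as their values were seen (Grhl1, Gm27252 and Gm20033). Members and lists were chosen with earlier results of these data known. A second coverage listing was not used. Some marker genes and the lists that hold them are not reported here.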

Additional observations from a re-analysis of the deposited data

How the results depend on the processing

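Klf10 was called higher in 13 of 14 alternatives and its log2 difference ranged from 1.68 to 1.92. Without a filter on low values, where 28856 entries were tested, 0 Klf members, 0 genes in all and 0 of the KLF target genes were called higher. The members' median of 0.22 ranged from 0.16 to 0.27 with a library left out, and was 0.22 with a pseudocount of 0.1, 0.20 with a pseudocount of 5 or quantile normalization, 0.19 with FPKM, 0.21 with voom and 0.29 at a mean TPM of at least 5, where 7 members were tested. The spread set against these moves, 0.08, is the SD over all 4 BMP6 and control library pairs. It was chosen after the SD over the same-numbered pairs, whose medians were 0.21 and 0.21, had come out near 0.00, under which nearly all of these values would count as moved. Klf2, Klf11 and Klf16 turned sign with a library left out, as given above. Klf12, Sp1, Sp2 and Sp3 did so as well, each with a log2 difference within 0.32 of 0, as did Ctbp1 (0.04 without control replicate 1) and Mef2c (0.01 without BMP6 replicate 2). Cdkn1a turned to -0.03 by voom, with or without the block.

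Of all genes, 24 were called higher without the block and 36 with the replicate block, 15 with a pseudocount of 5, 12 without a trend, 15 at a mean TPM of 5 or more and 56 by voom with the block. Called lower were 0 without the block, 1 with the block, 7 by voom with the block and 1 to 7 with a library left out. Among other Klf and Sp genes voom with the block called 1, Sp7. Among KLF target genes 0 were called with a pseudocount of 5 or at a mean TPM of at least 5, and 2 by voom with the block. That fit put 5 members past the adjusted p higher (Klf3, Klf4, Klf9, Klf10 and Klf13) and 1 lower (Klf5), against 1.74% and 0.545% of all entries open to calling. The cause of these moves was not tested. With 1 library left out, the lone library of a group is assumed to vary like the other group. The block changed no other call reported here. The 2 libraries per group limit every SD, and Klf2 and Klf4 rest on 288 to 648 rebuilt reads per library.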

Other observations

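Klf13 had a second transcript, ENSMUST00000183817.2 (599 bases as deposited), at 0.182 and 0.214 TPM after BMP6 and 0.676 and 0.455 TPM in controls. Its share of the Klf13 level was 0.391% and 0.522% after BMP6 and 1.72% and 1.42% in controls, while the main transcript held 98.3% to 99.3% in all libraries. The GENCODE M39 version of the second transcript, ENSMUST00000183817.3, holds 5599 stretches of 50 bases, so the deposited model is far shorter. These levels and shares thus hold for the deposited model only. The transcript was picked after its values were seen, and its difference was not tested.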
